A study of Schizosaccharomyces pombe with 4 samples.

Results

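The inner subtelomeres of fission yeast chromosome I, from 20 to 100 kb inside each chromosome end, were examined by chromatin immunoprecipitation with hybridisation to a tiling array (ChIP-chip) of Taz1 and Rif1. The members are the non-control probes whose design position on chromosome I lies from 20 up to 100 kb at the left end, or in the matching stretch at the right end, which runs 1 kb farther in. There were 531 such tiles, 261 on the left and 270 on the right, of 41551 non-control probes on the array and 18457 on chromosome I. Distance is given as the design position on the left and as 5575.0 kb minus the position on the right, where the last tile of the chromosome lies at 0.4 kb.

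Taz1 is the fission yeast protein that binds the double-stranded repeats of telomeres, and it also binds short runs of telomere repeats inside the chromosomes. It brings Rif1 to chromosome ends, and Rif1, with protein phosphatase 1, holds back the firing of replication origins that lie near its binding sites. Subtelomeres are the gene-poor stretches next to the telomere repeats. They share long blocks of near-identical sequence between chromosome ends, and they carry many genes for transporters, cell-surface proteins and enzymes of nutrient use.

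Schizosaccharomyces pombe cells were grown to log phase in the rich medium YEA at 30 °C, fixed with 3% paraformaldehyde and sonicated to fragments of 500 to 1000 bp. Both the precipitate (Cy5) and the whole-cell extract (Cy3) were amplified from random primers and hybridised together to 60-base probes spaced 300 bp apart. The group Taz1_wt was precipitated from wild-type cells with an antibody to Taz1 protein. Taz1_L593F was precipitated with the same antibody from cells with the taz1 allele L593F, which the labels also call mut5. Taz1_GFP was precipitated from taz1GFP cells with an antibody to GFP, and Rif1_Myc from Rif1Myc cells with an antibody to Myc. There was 1 array in each group and no dye swap, and a precipitation from untagged cells was not analysed here. So strain, antibody and array cannot be told apart, no test between groups was made, and an SD or interquartile range below is the spread over tiles. All values are log2 ratios of precipitated over whole-cell extract signal, centred on each array's median, so that 0 is the array median, 0.58 is 1.5-fold and 1 is 2-fold.

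At the left end the outer stretch, from 20 to 50 kb, holds sequence that recurs at other chromosome ends. Most tiles farther in, and most at the right end, have no such copy. In the design names, 122 of the 531 tiles carry the letter f or m as a suffix, whose meaning is not given in the files. A copy elsewhere in the reference genome ASM294v3, at 90% identity or more over at least 150 bp, was found for 110 of these 122 tiles and for 4 of the 409 tiles without the suffix. On the left, 27 of 30 tiles from 20 to 30 kb, 32 of 32 from 30 to 40 kb and 33 of 33 from 40 to 50 kb carried the suffix. On the right 12 of 270 did. A copy was found for 8 of 33 left-end tiles from 50 to 60 kb, and for 2 of 34, 0 of 33, 1 of 33 and 4 of 33 in the 4 steps farther in.

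The first 60 coding bases of SPAC977.03, annotated as a methyltransferase and lying near 34.8 kb on the left, show how close the copies are. Each is written 5′ to 3′ on its own coding strand from ASM294v3, and capitals mark bases that differ from the chromosome I left copy.
SPAC977.03, chrI:33835-33894, plus strand: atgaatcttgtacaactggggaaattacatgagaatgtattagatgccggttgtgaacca
SPBC1348.04, chrII:12176-12235, plus strand: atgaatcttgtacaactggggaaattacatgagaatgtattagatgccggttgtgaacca
unannotated, chrII:4500731-4500790, minus strand: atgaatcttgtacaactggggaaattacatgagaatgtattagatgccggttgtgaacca
SPAC750.03C, chrI:5562986-5563045, minus strand: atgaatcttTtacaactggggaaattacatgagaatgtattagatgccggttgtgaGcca

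Both chromosome II copies had 0 mismatches over the 60 bases, and the copy near the right end of chromosome I had 2. The copies lie 12.2 kb and 39.0 kb from the left and right ends of chromosome II in the assembly, and 16.1 kb from the right end of chromosome I. A probe in such a sequence reads all of these places together, so its level cannot be assigned to one of them.

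The next block inward lacks the copy on the right end of chromosome I. The start of SPAC977.05C, a gene with a Vel1p domain near 36.9 kb, is shown because the Taz1_wt running median first lies below 0 near it.
SPAC977.05C, chrI:36323-36382, minus strand: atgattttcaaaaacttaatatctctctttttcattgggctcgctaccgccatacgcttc
SPBC1348.06C, chrII:16536-16595, minus strand: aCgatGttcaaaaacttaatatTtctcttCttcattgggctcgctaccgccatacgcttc
SPBPB2B2.15, chrII:4496370-4496429, plus strand: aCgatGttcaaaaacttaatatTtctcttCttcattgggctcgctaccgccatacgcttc

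Both chromosome II copies had 4 mismatches, or 93.3% identity. At the right end, by contrast, the start of pdc102, a pyruvate decarboxylase gene, matched nowhere else in the 3 chromosomes within 9 mismatches.
pdc102, chrI:5552811-5552870, plus strand: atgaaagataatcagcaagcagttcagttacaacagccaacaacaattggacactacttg

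Taz1 reads repeats whose unit holds GGTTACA, and 5 matches to these 7 letters lie from 20 to 50 kb at the right end. They are shown because Taz1_GFP was high over this stretch, and 1 of them, at 39.96 kb, lies in a Taz1_GFP region described below. Capitals mark the match, and each sequence is written on the strand that reads GGTTACA.
match at 22.8 kb, in SPAC750.01, chrI:5556524-5556553, plus strand: aatttggggcgGGTTACAaagcaatattga
match at 29.1 kb, between genes, chrI:5550209-5550238, minus strand: gggaaggtaacGGTTACAagggatggttaa
match at 31.8 kb, between genes, chrI:5547571-5547600, minus strand: ttcatggttacGGTTACAtttgatatggga
match at 39.0 kb, in gdt1, chrI:5540324-5540353, minus strand: ttgatgatgatGGTTACAatttttattact
match at 39.96 kb, in SPAC186.04C, chrI:5539366-5539395, minus strand: ccaaggtgatcGGTTACAttgtccacatta

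By the 1.5-fold line, Taz1 signal reached farther in at the left end than at the right on the Taz1_wt array, and farther in at the right end on the Taz1_GFP array. By the crossing of the array median, it reached farther in at the right end on both with a running median of 11 tiles, but not under every alternative. On Taz1_wt at the left, the running median of 11 tiles was last at least 1.5-fold at 34.8 kb and first below the array median at 37.2 kb. At the right the same array never reached 1.5-fold in the window, with a highest running median of 0.58 just under that line, and first lay below its median at 46.0 kb. On Taz1_GFP at the left, the running median first lay under 1.5-fold at 25.8 kb, was last at least 1.5-fold at 33.0 kb and was first below the median at 45.9 kb. At the right it was at least 2-fold to 23.5 kb and at least 1.5-fold to 44.2 kb, and was first below the median at 55.3 kb. The crossing of the median on Taz1_wt at the right depended on the smoothing, and came at 25.3 kb with a running median of 5 tiles. At the left the Taz1_wt crossing at 37.2 kb was a dip of 2.1 kb with a lowest value of -0.05. Without suffix f and m no left tile remained between 23.1 and 50.1 kb, so a left crossing there could not be seen. It then came at 51.6 kb on Taz1_wt and at 64.5 kb on Taz1_GFP, which cannot be set against the right crossings. The outer limits on Taz1_wt and Taz1_GFP at the left moved inward to 40.8 kb with 5 tiles.

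**Figure D1:**
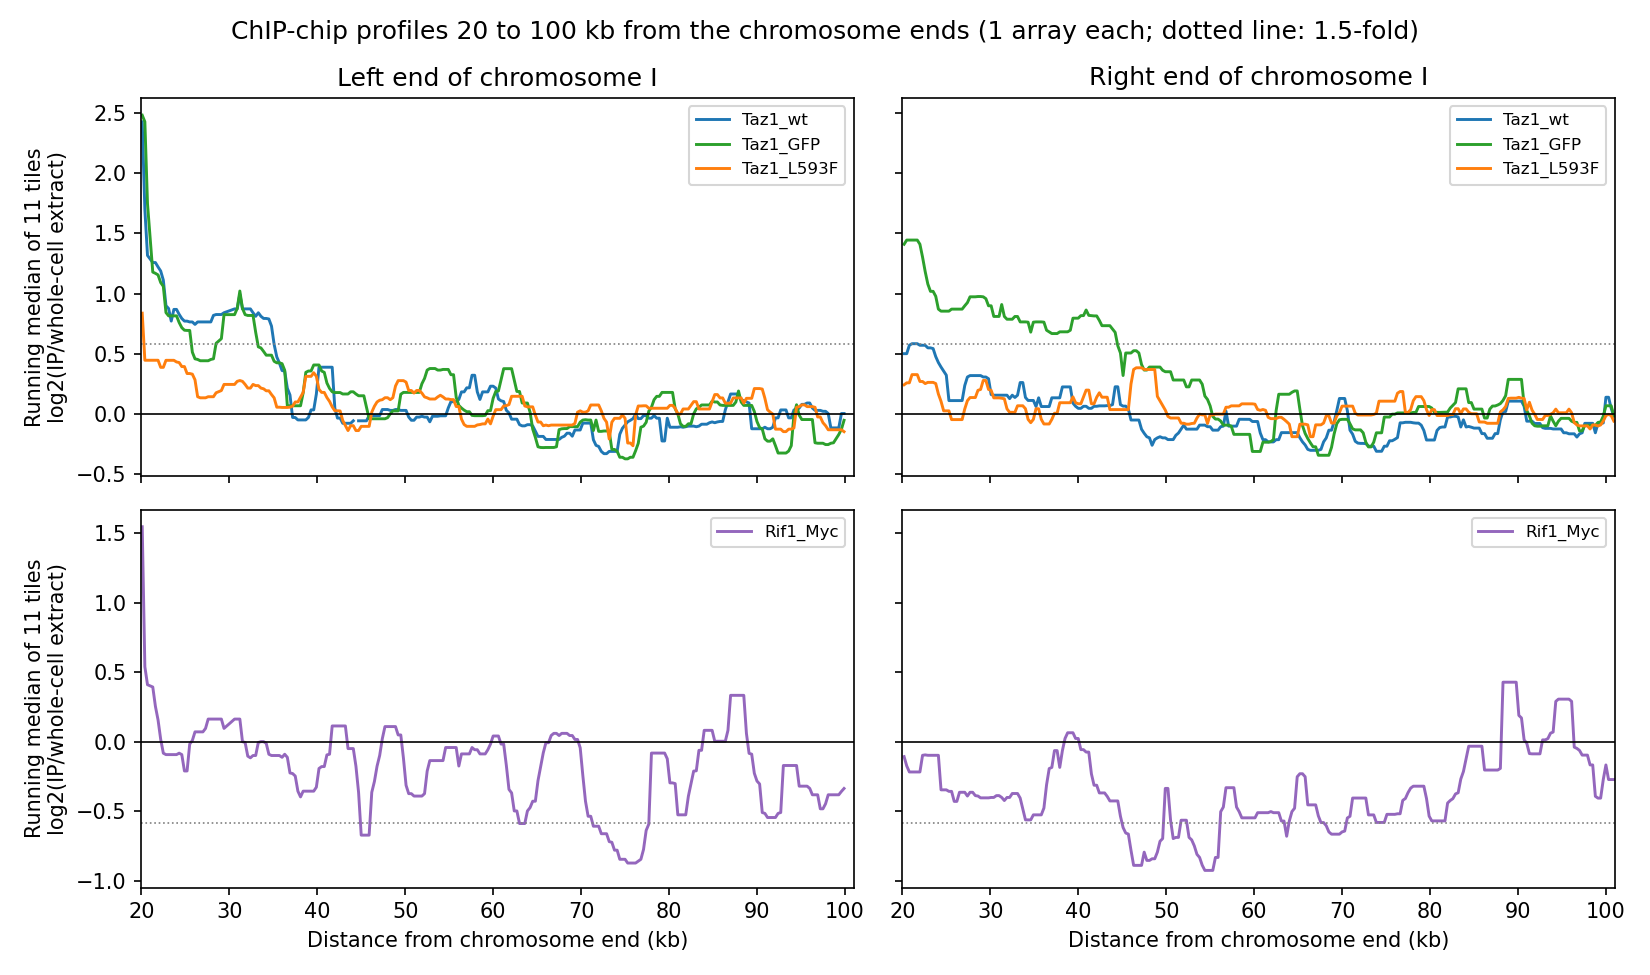
Running median of 11 tiles of log2(IP/whole-cell extract) against distance from the chromosome end in kb, for the 3 Taz1 arrays (top) and Rif1_Myc (bottom), at the left and right ends of chromosome I. Taz1_GFP stays above the dotted 1.5-fold line to 44.2 kb at the right, where Taz1_wt stays under it, and Rif1_Myc lies below 0 over most of both ends.

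By 10 kb steps, the left end of Taz1_wt had medians of 0.82, 0.49 and 0.03 in the 3 outer steps, which cover 20 to 50 kb. Over the same steps Taz1_GFP had 0.74, 0.44 and 0.16. Both arrays thus gave like levels at the left end and came close to the array median in the third step. Inside 50 kb the 5 remaining left steps lay between -0.11 and 0.05 on Taz1_wt and between -0.24 and 0.07 on Taz1_GFP.

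At the right end the 2 arrays gave unlike levels. Taz1_wt had medians of 0.39, 0.14 and -0.05 in the 3 outer steps, and Taz1_GFP had 0.98, 0.73 and 0.53. Taz1_GFP minus Taz1_wt was 0.59, 0.59 and 0.58 in these steps, against -0.08, -0.05 and 0.13 in the 3 outer left steps. From 50 to 60 kb the difference was 0.08. The step from 40 to 50 kb to that from 50 to 60 kb was also the largest drop of Taz1_GFP between neighbouring steps at the right end, from 0.53 to -0.03.

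Counts of single tiles gave the same picture. On Taz1_wt at the left, 27 of 30, 14 of 32, 3 of 32 and 1 of 33 tiles in the 4 outer steps were at least 1.5-fold higher, where 3.02% of all chromosome tiles were. At the right 5 of 33, 1 of 34 and 0 of 33 tiles in the 3 outer steps were. On Taz1_GFP, against 4.85% of all chromosome tiles, 31 of 33, 30 of 34, 14 of 33 and 1 of 33 tiles of the 4 outer right steps were at least 1.5-fold higher. None of the 100 right-end tiles from 20 to 50 kb was below the median on Taz1_GFP, as 50.2% of all chromosome tiles were. On Taz1_wt 27 were, against 50.1%.

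**Figure D2:**
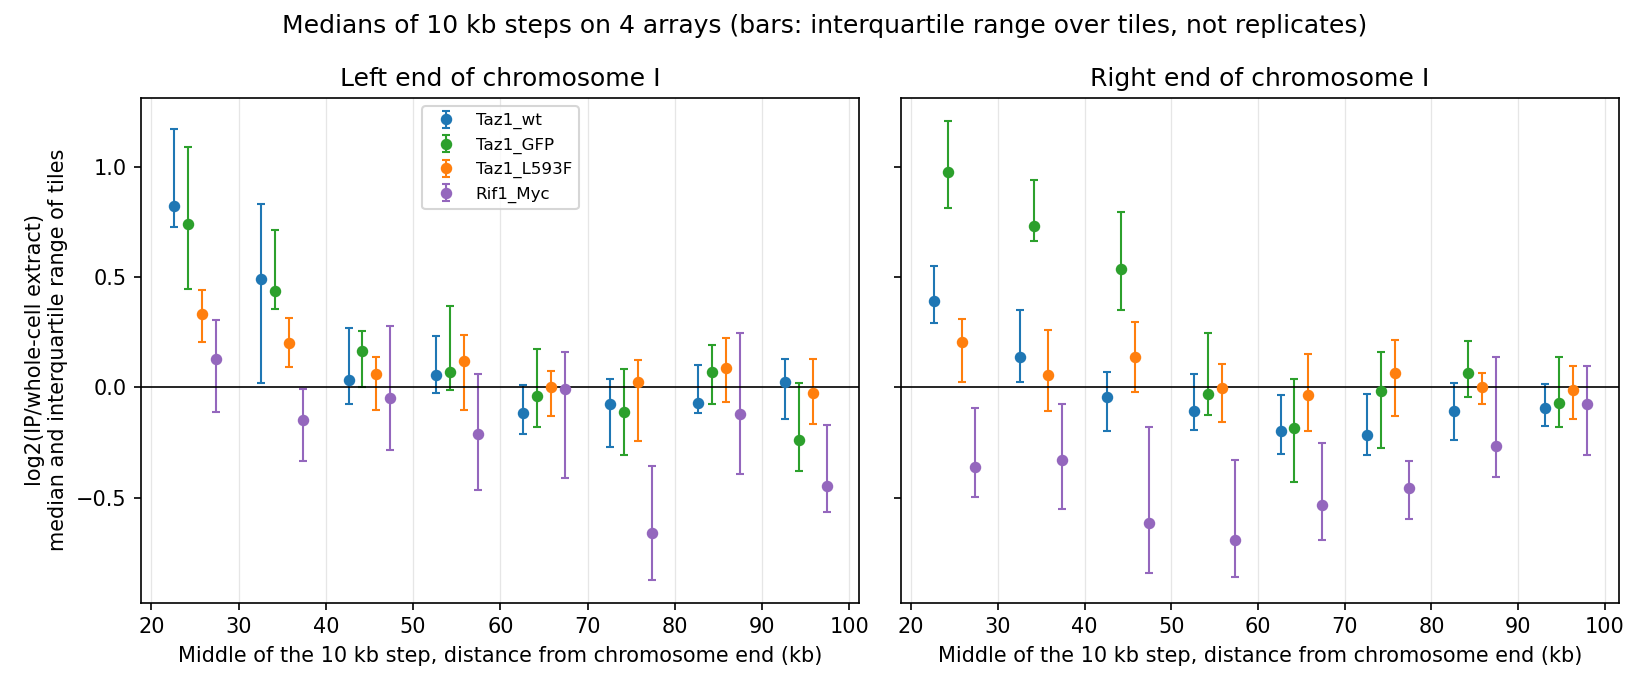
Median log2(IP/whole-cell extract) of the tiles of each 10 kb step with the interquartile range over tiles, against the middle of the step in kb from the end, for 4 arrays with points set side by side. At the left the 2 outer steps of Taz1_wt and Taz1_GFP lie together, and at the right Taz1_GFP lies above Taz1_wt in the 3 outer steps.

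Taz1_L593F was the flattest array at both ends. Its medians in the 3 outer steps were 0.33, 0.20 and 0.06 at the left and 0.20, 0.06 and 0.14 at the right. Of 531 tiles, 8 were at least 1.5-fold higher and 0 at least 2-fold, where 0.531% and 0.0315% of all chromosome tiles were. The running median first lay below the array median at 42.9 kb on the left and at 25.6 kb on the right. The right crossing was a dip of 1.5 kb with a lowest value of -0.05, and the highest right-end running median, 0.38, lay farther in at 46.6 kb. In the outermost left step the level was 0.49 lower than on Taz1_wt, and in the outermost right step 0.19 lower, in terms of step medians. In every right-end step from 40 kb inward it was higher than on Taz1_wt, by 0.08 to 0.28. Outside the window, in the outer 20 kb, the median over tiles was 0.66 on the left and 0.41 on the right, against 2.15 and 1.37 on Taz1_wt.

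In class medians, left-end levels were lower where the nearest copy lay farther from a chromosome end. From 20 to 50 kb on the left, the 33 tiles with a copy under 10 kb from some chromosome end had a Taz1_wt median of 0.83. The 27 tiles with the nearest such copy at 10 to 20 kb had 0.36, and the 33 tiles with it at 20 kb or more had 0.03. On Taz1_GFP the medians of these 3 classes were 0.81, 0.42 and 0.16. The first class lay at 20.1 to 32.4 kb, the second at 32.7 to 40.5 kb and the third at 22.8 to 49.8 kb. Of the third class, the tiles at 22.8 and 23.1 kb lay within the range of the first. They had 1.26 and 1.48 on Taz1_wt, and 1.16 and 1.06 on Taz1_GFP, above the medians of the first class. Apart from these tiles the classes followed one another in position, so copy distance and position cannot be told apart there. The part of each was not tested.

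A change in copies on the left, as placed by the shift used against the reference, lay inward of the 1.5-fold limits of Taz1_wt (34.8 kb) and Taz1_GFP (33.0 kb). Taz1_wt was 1.08 at 34.8 kb and between 0.36 and 0.58 from 35.1 to 36.3 kb, all with 3 further copies. In this 10 kb step another shift, 1900 bp away, gave a slightly better correlation (r of 0.522 against 0.505), so the place of the change is uncertain by that much. The 2 tiles at 36.0 and 36.3 kb had 3 further copies in the reference, and the 2 tiles at 36.6 and 36.9 kb had 2. Taz1_wt was 0.47 and 0.36 in the first pair and -0.03 and 0.16 in the second. Taz1_GFP was 0.99 and 0.88 in the first pair and 0.03 and 0.03 in the second. Both arrays were lower on the inner side of the change. Rif1_Myc was -0.09 and -0.11, then -0.40 and -0.23. Farther in, from 38.7 to 39.9 kb and with the same 2 copies, Taz1_GFP was between 0.35 and 0.44 while Taz1_wt was between -0.18 and 0.17. The part of the copies in these limits was not tested.

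A second, narrow block of Taz1_wt signal lay inside the 1.5-fold limit. Tiles at 40.2, 40.5, 40.8 and 41.1 kb had 1.17, 0.99, 0.54 and 1.02 on Taz1_wt, and 0.63, 0.81, 0.26 and 0.87 on Taz1_GFP. The tiles at 39.9 and 42.0 kb, on its outer and inner sides, had 0.17 and -0.12 on Taz1_wt, and 0.42 and 0.05 on Taz1_GFP. The block thus stood out on Taz1_wt, and on Taz1_GFP its tile at 40.8 kb was lower than the outer side. The tile at 40.2 kb holds a match to GGTTACA, and the block covers SPAC977.06, an uncharacterized gene with means of 0.72 ± 0.40 (SD, 6 tiles) on Taz1_wt and 0.53 ± 0.28 on Taz1_GFP. In the reference the tiles at 40.2 and 40.5 kb had 3 further copies, those from 40.8 to 41.4 kb had 2 and that at 41.7 kb had 1.

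Left-end tiles without f or m were few from 20 to 50 kb. The 3 of them, at 21.9, 22.8 and 23.1 kb, had 0.65, 1.26 and 1.48 on Taz1_wt, and 0.34, 1.16 and 1.06 on Taz1_GFP. All 3 were above 1.5-fold on Taz1_wt, but those at 22.8 and 23.1 kb had 1 further copy each in the reference. Only 2 tiles from 20 to 50 kb had no copy, at 21.9 and 22.2 kb. Their medians were 0.56 on Taz1_wt and 0.31 on Taz1_GFP, both under 1.5-fold. With suffix f and m left out, 5 left-end tiles in place of 46 were at least 1.5-fold on Taz1_wt, and 4 in place of 36 on Taz1_GFP. The last position at 1.5-fold then moved from 34.8 to 23.1 kb on Taz1_wt and from 33.0 to 22.8 kb on Taz1_GFP, since no tile remained between 24 and 50 kb. The right end was hardly touched, and Taz1_GFP was then last at 1.5-fold between 41.5 and 45.4 kb over every alternative.

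**Figure D3:**
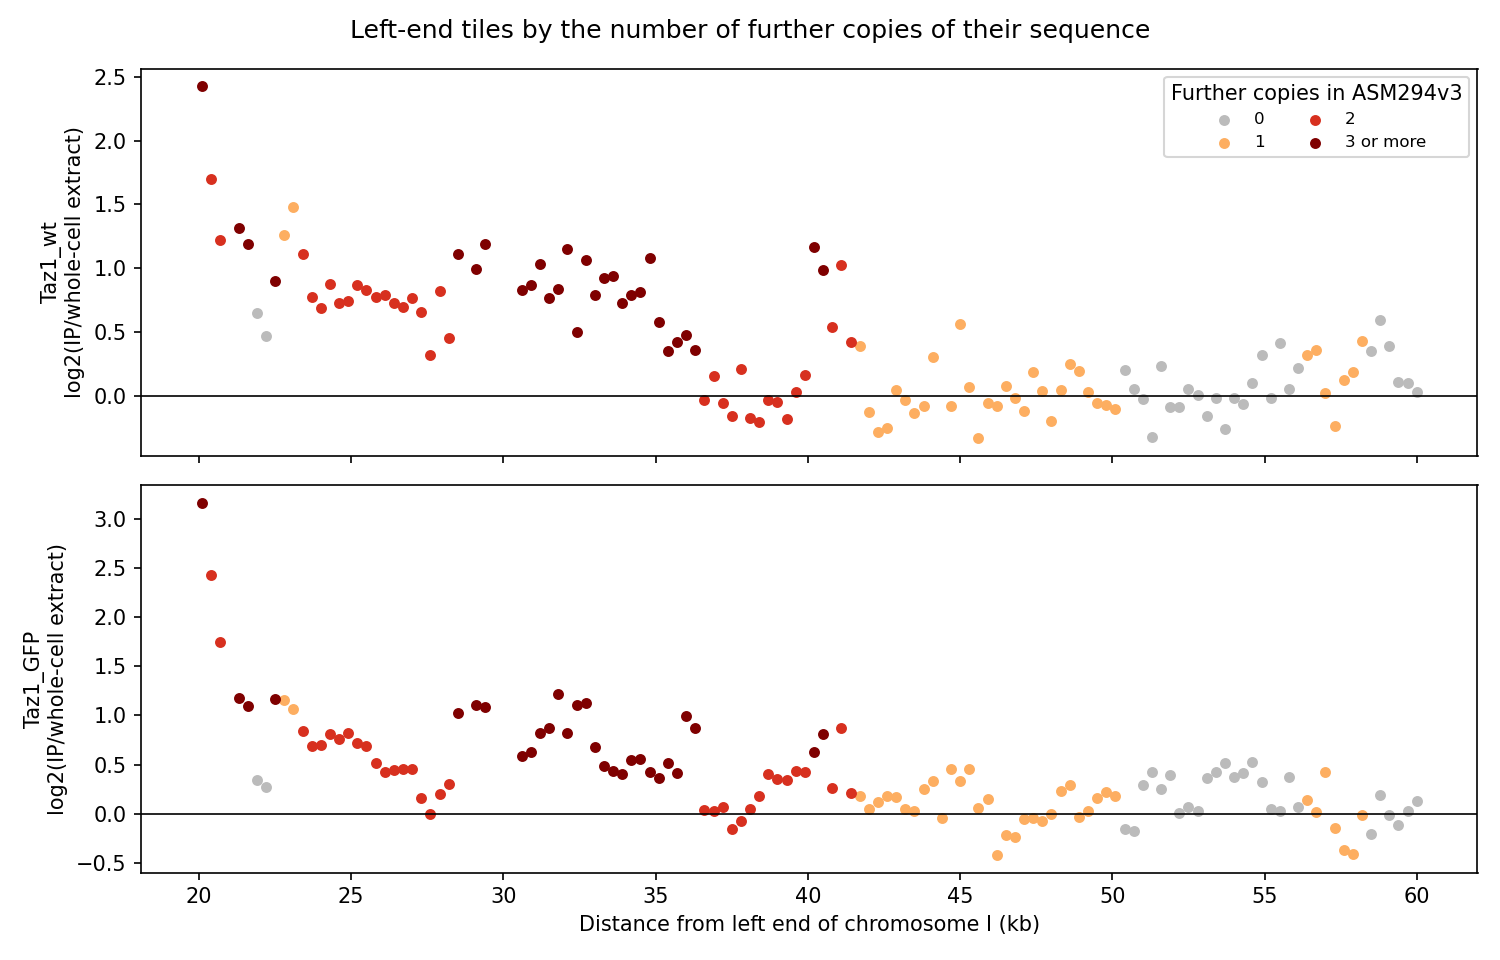
Taz1_wt and Taz1_GFP log2 ratio of each left-end tile from 20 to 60 kb against distance from the end in kb, coloured by the number of further copies in ASM294v3. Both arrays are lower at 36.6 kb than at 36.3 kb, where the number of further copies goes from 3 to 2, Taz1_GFP is again between 0.35 and 0.44 from 38.7 to 39.9 kb, and a narrow block stands at 40.2 to 41.1 kb on Taz1_wt.

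Whole-cell extract signal also differed between the ends. Relative to each array's median, it was 0.58, 0.57 and 0.49 in the 3 outer left steps on Taz1_wt, and -0.62, -0.31 and -0.81 in the 3 outer right steps. On Taz1_GFP it was 0.39, 0.52 and 0.50 at the left and -0.81, -0.61 and -1.25 at the right. Its part in the ratios was not tested. With the 10% dimmest whole-cell extract signals left out, 49 in place of 76 right-end tiles were at least 1.5-fold on Taz1_GFP.

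Regions were runs of tiles whose running median of 3 was at least 2-fold. On Taz1_wt, 0.528% of chromosome tiles had such a running median. The left end held 3 of these regions, of which 1 ran from the start of the chromosome to 23.7 kb, and the other 2 were 1 tile wide with summits at 29.1 kb in SPAC212.01C and at 32.4 kb in SPAC977.18. The right end held none. On Taz1_GFP, against 1.24% of chromosome tiles, the left end held 3 regions with inner summits at 29.1 and 32.1 kb, in the same 2 genes. Both arrays gave the left-end summits within 300 bp of each other.

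At the right end Taz1_GFP formed 5 regions. Their summits of 1.90, 1.02, 1.19, 1.10 and 1.06 lay at 21.1, 24.7, 28.3, 32.5 and 39.7 kb. Their tiles carried no suffix f or m. Of the right-end tiles from 20 to 50 kb, 63 lay between protein-coding genes and 37 in them. The Taz1_GFP medians of these tiles were 0.82 between genes and 0.68 in genes. All 5 summits lay between genes, beside SPAC750.01, between pdc102 and SPAC750.01, between SPAC186.08C and pdc102, between SPAC186.07C and SPAC186.08C, and between SPAC186.04C and gdt1. Over the same 5 regions in that order, Taz1_wt means were 0.68, 0.55, 0.34, 0.42 and 0.20. These were all under 2-fold, with the highest value in the outermost region, as on Taz1_GFP. With GC content fitted and removed the count was 3, and with a threshold of 1.5-fold it was 2.

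The telomere repeat letters were set beside these summits. The matches at 39.96, 39.0, 31.8 and 29.1 kb lay 0.41, 0.55, 0.60 and 0.97 kb from the nearest summit, and the match at 22.8 kb lay 1.75 kb away. Their own tiles had 1.04, 0.66, 0.81, 0.97 and 0.70 on Taz1_GFP in that order, and -0.13, 0.09, 0.16, 0.32 and 0.39 on Taz1_wt. All right-end tiles from 20 to 50 kb had a median of 0.77 on Taz1_GFP, so the tiles with a match lay on both sides of their surroundings. The 5 matches farther in, from 62.3 to 98.7 kb, had Taz1_GFP values between -0.21 and 0.48. Inside the outer 100 kb of the chromosome, the 460 tiles with a match had a median of -0.03 on Taz1_GFP and the 17345 without had -0.01. So a match by itself went with no higher level there.

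GGTTACA occurred 503 times on chromosome I, or 0.902 times in 10 kb on both strands, and 2.66% of its 300 bp windows hold it. It occurred 14 times in the left window, or 1.77 times in 10 kb, and 10 times in the right, or 1.23 times in 10 kb. Of the 10 right-end matches, 5 lay in the 30 kb from 20 to 50 kb. The G-rich GTGGGGG occurred 2 times on the left and 4 times on the right, against 0.246 times in 10 kb over the chromosome, and 1 of these, at 20.1 kb, lay in the outermost Taz1_GFP region with a tile value of 1.54.

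**Figure D4:**
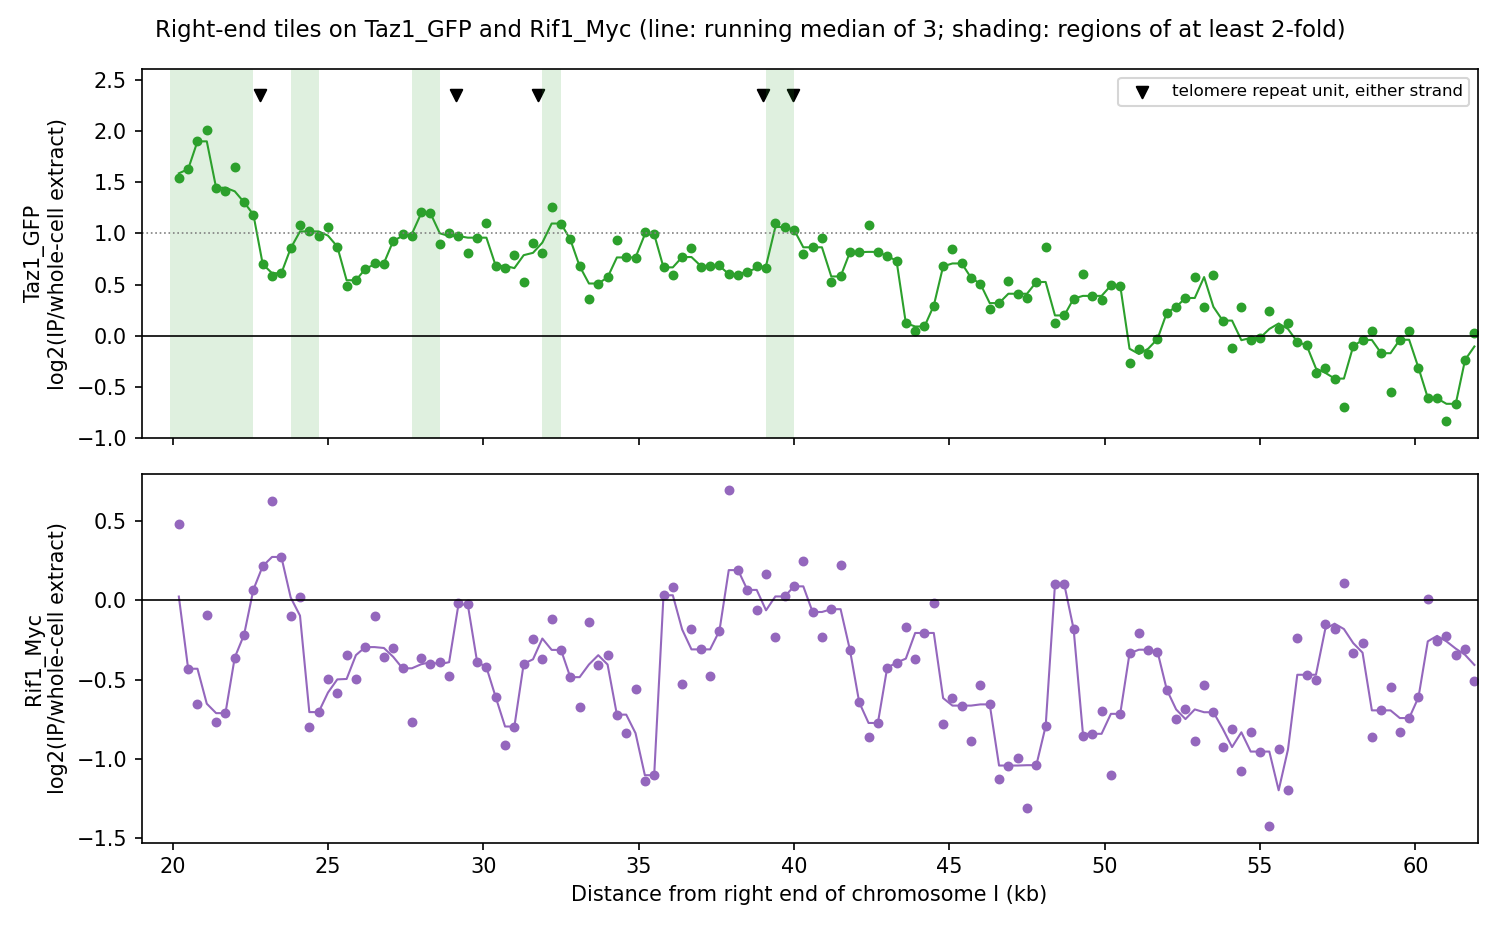
Taz1_GFP (top) and Rif1_Myc (bottom) log2 ratio of each right-end tile from 20 to 62 kb against distance from the end in kb, with the running median of 3 tiles as a line. Shading marks the 5 Taz1_GFP regions and triangles the telomere repeat unit, and 1 of the 5 triangles lies in a shaded region while Rif1_Myc lies mostly below 0.

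Rif1_Myc was below its array median over most of both ends. At the left its running median first lay below 0 at 22.5 kb, over a run of 3.3 kb with a lowest value of -0.21. The first longer run there began at 34.2 kb. At the right the running median was below 0 from the outer edge of the window, at 20.2 kb. It was below 0 at 191 of 261 left-end tiles and 243 of 270 right-end tiles, where 44.8% of running medians inside the outer 100 kb of chromosome I were. The median over all tiles of an end was -0.18 on the left (interquartile range -0.51 to 0.11) and -0.38 on the right (-0.65 to -0.10). In the outer 20 kb of the same ends it was 1.32 and 0.40.

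By steps, Rif1_Myc at the left had medians of 0.13, -0.15, -0.05, -0.21, -0.01, -0.66, -0.12 and -0.45 from the outer to the inner step. At the right it had -0.36, -0.33, -0.62, -0.69, -0.53, -0.46, -0.27 and -0.08. So 15 of 16 steps were below 0, where 50.2% of internal 10 kb windows were. Of these, 1 step on the left (70 to 80 kb) and the 2 right-end steps that cover 40 to 60 kb were at least 1.5-fold lower, as were 0.168% of internal windows, or 2 of 1187. At the right the lowest step lay just inside the end of the Taz1_GFP signal, and the levels came back to near the median by 90 kb.

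The runs below the median were long at the right. One ran from 40.3 to 88.0 kb, or 48.0 kb, and a second from 20.2 to 38.2 kb, or 18.3 kb. Inside the outer 100 kb of the chromosome there were 495 runs with a median length of 3.60 kb and a longest of 30.3 kb, and 10 were 18.3 kb or longer. At the left the longest run covered 14.1 kb, from 69.9 to 83.7 kb, and 20 of the 495 internal runs were as long or longer. The lowest running median was -0.87 at 75.3 kb on the left and -0.92 at the right, inside the longest run.

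Single tiles at least 1.5-fold lower on Rif1_Myc numbered 50 of 261 on the left and 77 of 270 on the right, against 5.73% of all chromosome tiles. Tiles at least 1.5-fold higher numbered 11 and 7, against 9.99%. The number of low tiles depended strongly on the scaling, and loess within arrays gave 17 and 22. Under loess, under MAD scaling and with GC content removed no step was 1.5-fold lower, while 7 or 8 right-end steps and 5 to 8 left-end steps were below 0 over the alternatives run. The 5 at the left came without dim probes, and without suffix f and m, where the 3 outer steps held too few tiles or none and all 5 others were below 0.

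In medians, Rif1_Myc was lower between genes than in them. At the right the median was -0.53 over 150 tiles between protein-coding genes and -0.20 over 120 tiles in them. At the left it was -0.34 over 146 tiles between genes and -0.00 over 115 in genes. Inside the outer 100 kb of chromosome I the medians were -0.06 over 3493 tiles between genes and 0.06 over 14312 in genes. A larger share of tiles thus lay between genes at the ends than inside. Rif1_Myc levels of the ends and of the inside therefore compare unlike mixes of tiles. The GC content of tiles between genes was 30.0% at the right, 30.7% at the left and 31.7% inside the chromosome, and that of tiles in genes was 37.8%, 36.7% and 37.3%. So the tiles with lower Rif1_Myc were also those with lower GC content, and the part of GC content in this difference was not tested. On Taz1_GFP the order was the other way, with 0.28 between genes and 0.06 in genes at the right.

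GC content moved with Rif1_Myc tile by tile. Over tiles, which share 1 library and neighbouring fragments, Pearson's r between Rif1_Myc and GC content was 0.41 at the right, 0.30 at the left and 0.28 inside the chromosome. With a straight-line fit on GC content removed, the end medians were -0.12 on the left and -0.34 on the right, and the running median was below 0 at 64.0% and 86.3% of tiles. Over the same right-end tiles r between Taz1_GFP and Rif1_Myc was 0.02, against 0.25 inside the chromosome and 0.45 at the left. So higher Taz1_GFP tiles at the right end were not the higher tiles on Rif1_Myc.

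All 7 stretches where the Rif1_Myc running median of 3 tiles was at or under -1 lay between genes. Of all tiles, 146 of 261 at the left and 150 of 270 at the right lay between protein-coding genes. Inside the outer 100 kb of chromosome I, 3493 tiles lay between genes and 14312 in them. Stretches at or under -1 were not counted there, so the 7 stretches cannot be read as a trait of the ends. At the left the stretches were at 44.4, 51.0 and 75 kb, between pfl6 and ayr2, plb4 and nhe1, and SPAC977.17 and SPAPJ695.02. At the right they were at 35.5, 47.2, 55.6 and 62.8 kb, and the lowest running median was -1.20 at 55.6 kb, between SPAC869.01 and pfl9. The stretch at 62.8 kb lay between SPAC869.03C and yhb1, a nitric oxide dioxygenase gene, whose own mean was -0.44. Those at 55.6, 62.8 and 75 kb were 1 tile wide. The widest covered 1.5 kb at 47.2 kb, between SPAC186.02C and SPAC186.03, where 5 tiles had a lowest running median of -1.04. At 35.5 kb, between SPAC186.06 and SPAC186.07C, Rif1_Myc had a mean of -1.12 and Taz1_GFP of 0.9995 over the same 2 tiles, while Taz1_wt had -0.03.

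Gene means were taken over the tiles in a protein-coding gene and 500 bp on both sides. The left window held 28 such genes with at least 2 tiles and the right 26. On Taz1_wt, 9 of 28 left genes and 0 of 26 right genes were at least 1.5-fold higher, against 0.530% of 2266 genes inside the outer 100 kb. On Taz1_GFP, 7 at each end were, against 1.37%. On Taz1_L593F and on Rif1_Myc none was, against 0.0441% and 5.16%.

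Genes of the left end from 22 to 36 kb carried the Taz1_wt signal. SPAC212.04C had 1.05 ± 0.35 (SD, 8 tiles), SPAC212.01C 1.04 ± 0.14 and SPAC212.03 0.99 ± 0.32, all uncharacterized. SPAC212.02, between them, had 0.60 on Taz1_wt and 0.22 on Taz1_GFP. The genes ftm1 and ftm2, which encode proteins with transmembrane helices, had 0.95 ± 0.17 and 0.87 ± 0.12. On Taz1_GFP the 2 highest were SPAC212.01C at 0.96 and SPAC977.18 at 0.90. SPAC212.03 and SPAC212.04C were the highest on Taz1_L593F, with 0.47 each. Inward, the methyltransferase gene SPAC977.03 had 0.72 on Taz1_wt, SPAC977.04 had 0.54 and SPAC977.05C 0.05 ± 0.21. The gene pfl6, for a cell-surface glycoprotein, had -0.02. All tiles of the genes from SPAC212.02 to pfl6 carry the suffix f or m, and gene names between 30.8 and 35 kb are less certain because the array's shift against the reference changes there.

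Genes of the right end from 23 to 41 kb carried the Taz1_GFP signal. SPAC750.01, an aldo/keto reductase gene, had 0.90 ± 0.29 (SD, 7 tiles) on Taz1_GFP and 0.53 ± 0.27 on Taz1_wt. SPAC186.08C, annotated as an L-lactate dehydrogenase, had 0.85 ± 0.16 and 0.20 ± 0.15. The gene pdc102, whose product takes carbon dioxide from pyruvate, had 0.77 ± 0.20 and 0.09 ± 0.29. SPAC186.07C, for a hydroxyacid dehydrogenase, had 0.73 and SPAC186.06, for an isomerase, had 0.70 on Taz1_GFP, with 0.20 each on Taz1_wt. The gene gdt1 had 0.75 and SPAC186.04C had 0.83 on Taz1_GFP, with 0.32 and 0.00 on Taz1_wt. SPAC922.04, near 99.4 kb, was also among the 5 highest right-end genes on Taz1_wt, at 0.20. These 7 genes of the outer right end were all higher on Taz1_GFP than on Taz1_wt. Inward of them SPAC186.03, an L-asparaginase gene, had 0.45, SPAC186.02C had 0.41 and pfl9, for a DIPSY family glycoprotein, had 0.09. The next gene, SPAC869.01, for an amidase, had -0.19. So the gene means on Taz1_GFP went from 0.41 at SPAC186.02C to near the array median at pfl9.

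On Rif1_Myc, 13 of 28 left genes and 20 of 26 right genes had means below 0, against 47.4% inside the outer 100 kb. At least 1.5-fold lower were 2 on the left and 1 on the right, against 0.353%. These were SPAPJ695.02 at -0.94 ± 0.16 (SD, 8 tiles), ayr2, for a dehydrogenase, at -0.65 ± 0.28 and pcm2, whose product repairs damaged aspartate residues in proteins, at -0.65 ± 0.15. At the left SPAC977.15 had -0.58, isp3, for a protein of spores, had -0.39 and str3, for a siderophore-iron transporter, had -0.32. At the right SPAC869.04, for a formamidase-like protein, had -0.58, sul2, for a sulfate transporter, had -0.52, pfl9 had -0.51 and hry1, for a protein with a cation-binding domain, had -0.49. The highest means were 0.23 for the phospholipase gene plb4, 0.22 for SPAC212.01C and 0.20 for SPAC977.18 at the left. At the right they were 0.29 for the transporter gene SPAC922.05C, 0.28 for cat1, for an arginine and lysine transporter, and 0.13 for SPAC750.01.

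**Figure D5:**
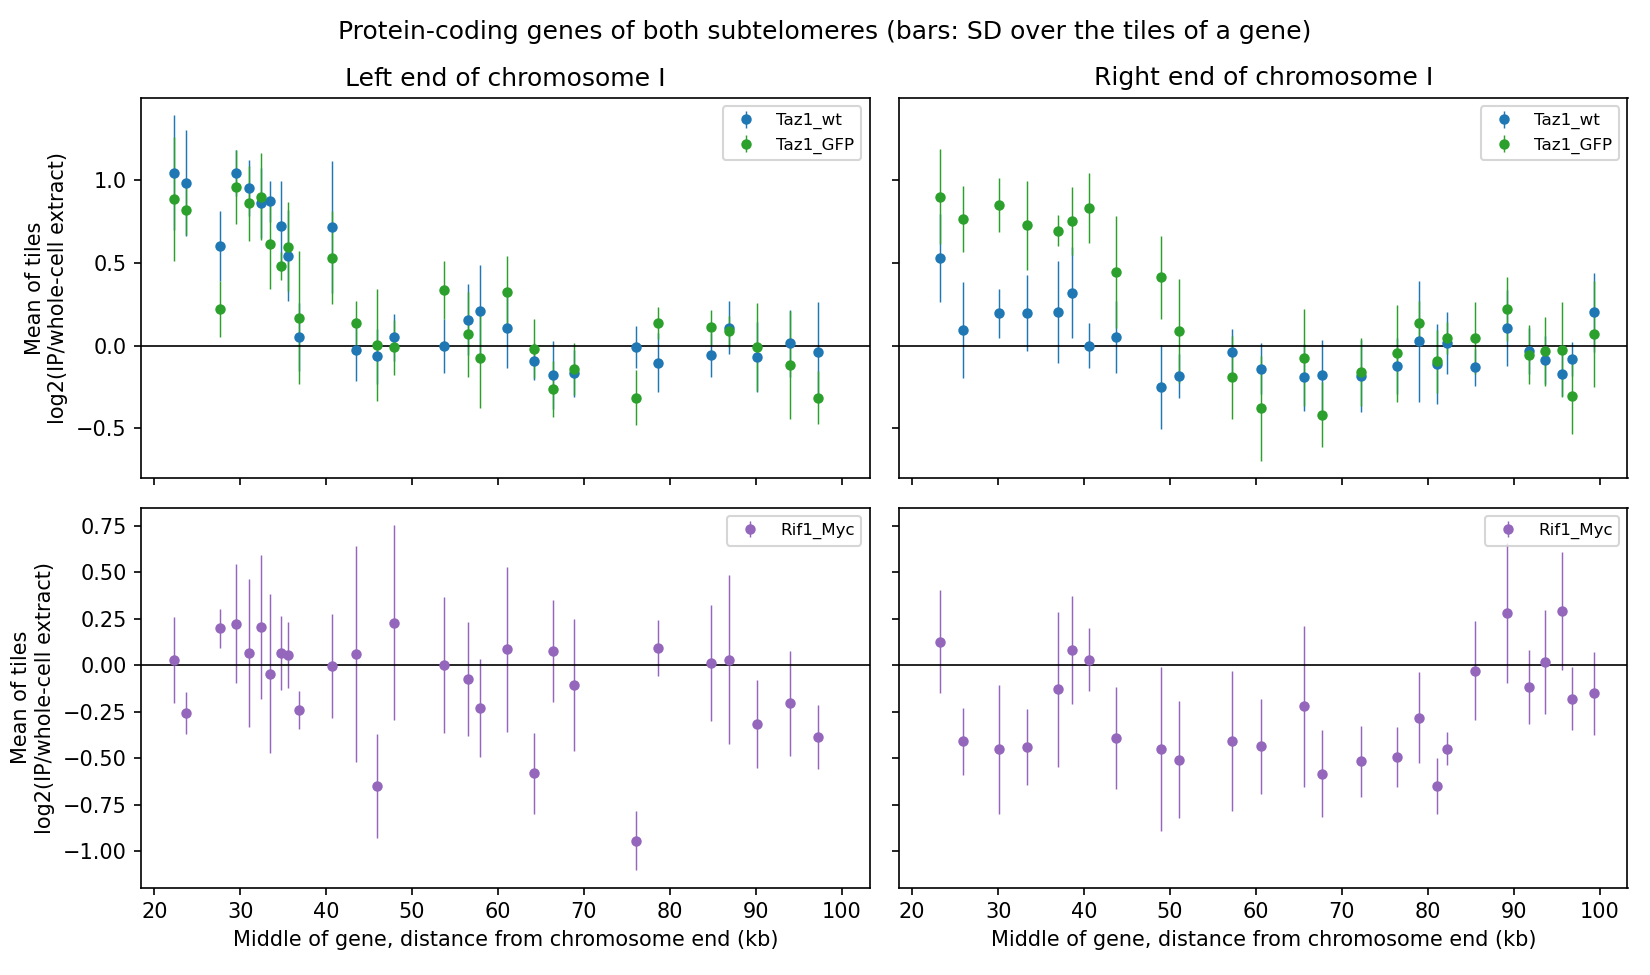
Mean log2(IP/whole-cell extract) of each protein-coding gene with its SD over tiles, against the middle of the gene in kb from the end, on Taz1_wt and Taz1_GFP (top) and Rif1_Myc (bottom). Taz1_wt genes stand high at the left to 36 kb and again at SPAC977.06, Taz1_GFP genes at both ends, and Rif1_Myc genes lie below 0 over the right end from 44 to 82 kb.

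The listed gene groups lay mostly inside the Taz1 limits. None of the 9 membrane transporter genes was at least 1.5-fold on any array. At the left, nhe1, a sodium and proton antiporter, had 0.34 on Taz1_GFP, fex1, which exports fluoride, had 0.07, ght3, for gluconate uptake, had 0.11 and str3 had -0.01. At the right, the urea transporter SPAC869.03C had -0.07, sul2 -0.16, put4, for proline uptake, 0.05, cat1 0.22 and SPAC922.05C -0.02. On Rif1_Myc the list's median was -0.04 at the left and -0.03 at the right, where the median of all genes of the window was 0.01 and -0.34.

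Of 3 genes of pyruvate and glycerol metabolism, pdc102 was the only one past 1.5-fold, on Taz1_GFP. The left-end gene dak2, a dihydroxyacetone kinase that feeds glycerol into glycolysis, had means of -0.18 (Taz1_wt), -0.26 (Taz1_GFP) and 0.07 (Rif1_Myc). The right-end gene atd2, an aldehyde dehydrogenase, had -0.03, -0.05 and -0.12. The 1 glycosidase gene, mel1, whose product splits galactose from melibiose, had 0.03 on Taz1_wt, 0.14 on Taz1_GFP and -0.28 on Rif1_Myc.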

How the data were processed

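Per the file headers, the 4 arrays were quantified by Agilent Feature Extraction (version 11.5.1.1). Each deposited processed signal is a background-subtracted, dye-normalized intensity. A log10 ratio of both channels is deposited beside it, and the authors' value table holds those ratios as log2. Here the log2 ratio of Cy5 to Cy3 processed signal had the array's own median subtracted, without loess. Spots marked as outliers, 2 to 74 an array, were dropped. Runs within 1 kb were merged into 1 region. One array in each group sets the precision, and depth does not apply.

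For the design positions, no build is given in the sources used here. Tiles were placed on ASM294v3 (RefSeq) where whole-cell extract signal correlated best with GC content, and copies were found with blastn 2.17.0. The best shift was within 300 bp of that used in 13 of 16 steps (the left step from 30 to 40 kb was off by 1900 bp) and in 106 of 108 windows elsewhere on the chromosome. Sequences are from ASM294v3. Straight-line GC fits and limma 3.58.1 (normexp, loess) served as alternatives.

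Genes were named by rank at each end (5 highest on Taz1_wt, 3 highest and 5 lowest on Rif1_Myc, 2 highest on each other Taz1 array), by lying at summits or limits, or by list. The lists took product words, with symporter, antiporter and melibiase added later, which bring in ght3, nhe1 and mel1. SPAC977.06 and SPAC186.02C and other neighbours of limits were named after their values were seen. Members and lists were chosen with earlier results of these data known. The edge and region steps were run on simulated data with tiles drawn independently, so the likeness of neighbouring tiles was left out. Edges, read midway up the added step, were placed within 3 kb in 70 to 100% of runs, lowest for Rif1_Myc at 1.5-fold. Regions of 6 tiles were found in 100% of runs at 3-fold and in 0 to 22% at 1.5-fold. Python 3.11.15 with pandas 2.3.3 and numpy 2.4.6 was used.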

Additional observations from a re-analysis of the deposited data

How the results depend on the processing

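Most end medians, edges and counts moved little under centring outside the outer 100 kb, outlier spots kept, suffix m left out and regions not merged. The authors' value table holds the same log2 ratios within 5e-10, so no result could move under it. No end or step median past 1.5-fold changed its sign. Among end medians near 0, that of Taz1_wt at the left, 0.03, was -0.05 under normexp and -0.06 without suffix f and m, and that of Taz1_L593F at the right, 0.04, was -0.0045 under normexp. Left-end Rif1_Myc steps below 0, 7, ranged from 5 to 8. End medians lay from -0.33 to -0.09 on Rif1_Myc at the left and from -0.51 to -0.24 at the right, and from 0.07 to 0.20 on Taz1_GFP at the right. A step was taken as moved past one robust SD, an edge past 3 kb and a count past 1.5 times. The GC fit and the removal of suffix f and m were chosen after seeing the data.

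On Rif1_Myc, tiles at least 1.5-fold lower, 50 at the left and 77 at the right, became 30 at the left after the GC fit, 20 and 28 with each array's median absolute deviation (MAD) set to the mean of the 4, 29 and 38 without dim probes, 17 and 22 under loess and 99 and 121 under normexp. Steps at least 1.5-fold lower, 1 and 2, became 0 and 0 after the GC fit, MAD scaling and loess, 0 at the right without dim probes, 0 and 1 with step means and 2 and 4 under normexp. The share of left running medians below 0, 73.2%, became 92.0% under normexp and 84.1% without suffix f and m. Right-end genes at least 1.5-fold lower went from 1 to 2 with gene bodies alone.

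On Taz1_wt, right-end tiles at least 1.5-fold higher, 8, became 5 after the GC fit, 16 under MAD scaling, 1 without dim probes and 13 under normexp. Its right-end regions, 0, became 1 under MAD scaling and 2 at 1.5-fold. Its left regions, 3, became 1 at 3-fold and 1 without suffix f and m. The median crossing at the right, 46.0 kb, came at 25.6 kb under normexp and 25.3 kb with 5 tiles. The last 1.5-fold position at the left, 34.8 kb, moved to 40.8 kb with 5 tiles and 23.1 kb without suffix f and m, where the crossing moved to 51.6 kb, tiles from 46 to 5 and steps from 1 to 0. Left steps became 2 under normexp.

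On Taz1_GFP, right-end regions, 5, became 3 after the GC fit, 2 at 1.5-fold and 1 at 3-fold, and right-end tiles, 76, became 49 without dim probes. Left regions, 3, became 1 under loess, 5 at 1.5-fold, and 1 at 3-fold and without suffix f and m. The right median crossing, 55.3 kb, came at 46.0 kb under normexp and 50.8 kb with 5 tiles. The left crossing, 45.9 kb, came at 64.5 kb with 21 tiles and without suffix f and m. The last left 1.5-fold position, 33.0 kb, moved to 40.5 kb under normexp, 40.8 kb with 5 tiles and 22.8 kb without suffix f and m. Left tiles, 36, became 56 under normexp and 4 without suffix f and m, and left steps, 1, became 2 and 0.

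The cause of these moves was not tested, except that leaving out suffix f and m removes every left tile from 24 to 50 kb by construction. No paired analysis was possible because each group has 1 array and no test was made.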

Other observations

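One left-end tile at 80.4 kb, between genes, stood far below its neighbours on 3 arrays. It had -3.05 on Rif1_Myc, -2.12 on Taz1_wt and -1.58 on Taz1_GFP, and -0.25 on Taz1_L593F. The next lowest Rif1_Myc tile of both windows had -1.42.

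The 113 tiles that hold the G-rich GTGGGGG inside the outer 100 kb of chromosome I had a Rif1_Myc median of 0.52, against 0.04 for the 17692 without. The 6 subtelomeric tiles with a match had Rif1_Myc values from -0.55 to 0.48. Inside the chromosome Rif1_Myc also rose with GC content over tiles (Pearson's r of 0.28). The difference between tiles with and without a match, and the part of GC content in it, were not tested.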
